A study of Rattus norvegicus with 27 samples.

Results

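In primary rat Schwann cells, 45 genes were high under dibutyryl cyclic AMP (dbcAMP) and back near or below their starting level after it was withdrawn. They were chosen from 17315 rows of the cell mRNA table by their own values. For each stage, m was log2 of the mean CPM (counts scaled to the library's total) of its 3 libraries plus 1. A gene was kept where m of differentiated cells was at least 2.5 above that of undifferentiated cells, and m of dedifferentiated cells at most 0.5 above it. Of 48 rows that met both limits, 3 phosphodiesterase genes with names starting with Pde were set aside. The other 45 are described here by function. Because all 3 stage levels chose these genes, the differences between stages are given for them as a description, with no p-value.

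Schwann cells are the glia that wrap axons of peripheral nerves. Purchased primary cells were taken at 3 stages of culture, in 3 biological replicates per stage. The undifferentiated ones had no dbcAMP, and the labels state nothing more on their medium. Differentiated cells were starved overnight and then kept for 72 h with 1 mM dbcAMP, a form of cyclic AMP that crosses the cell membrane, in medium with 1% exosome-depleted fetal bovine serum. Dedifferentiated cells received the same and then spent 72 h without dbcAMP in complete medium with 10% exosome-depleted serum, forskolin and 10 ng/mL heregulin. Stage and medium therefore changed together and cannot be told apart. Extracellular vesicles from the same stages gave 9 miRNA and 9 lncRNA libraries, which the last paragraph uses for 1 gene.

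Cyclic AMP activates protein kinase A, which phosphorylates CREB, a factor that binds the cAMP response element in the promoters of many inducible genes. In cultured Schwann cells, raised cyclic AMP takes the place of part of the signal from axons and drives the cells toward myelin gene expression. Forskolin, present in the last medium, activates adenylyl cyclase, the enzyme that makes cyclic AMP, and heregulin signals through ErbB receptors to the kinase ERK. Dusp6, Etv4 and Etv5, which are among the 45 genes, are known as genes that ERK signalling induces.

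The cell mRNA libraries held 10058735 to 16212278 estimated counts, so that 3 counts correspond to at most 0.298 CPM. Schwann cell markers were present: 7 of 8 listed were in the table, none of them at 0, with summed levels of 8242 to 9425 CPM in undifferentiated, 8445 to 11076 in differentiated and 18542 to 21433 in dedifferentiated libraries. Replicate 3 of every stage was read in another sequencing project than replicates 1 and 2. The libraries are bulk RNA, in which a larger share of cells with a transcript and more transcript per cell cannot be told apart. The replicates are labelled biological, but not as separate cultures or animals, so the tests measure the spread between these libraries. Levels are compared between stages and libraries, not between genes, since the values are not per length.

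The choice of genes used no sequence. RefSeq promoters of assembly GRCr8, from 250 bases before to 50 after the start, were found for 29 of the 45 genes. The letters TGACG, the core of the cAMP response element, were in 3 of 29 (10.3%) on either strand, against 21.2% of all 33469 promoters in the table and 28.1% of those of genes in the mRNA table. The full element TGACGTCA, which holds TGACG, was in 0 of 29, against 1.83% of all promoters. TATAAA, the TATA box, was in 5 of 29 (17.2%), against 14.2% of all promoters and 9.74% of those of genes in the mRNA table. In Postn, Nppc and Igfbp4 it lay on the gene's strand 44, 48 and 40 bases before the start, and in Fosb and Galnt6 on the other strand, 180 and 248 bases before it. On the gene's strand, TATAAA began 20 to 40 bases before the start in 1 of 29 (3.45%). The shares were 1.37% of all promoters and 1.96% of those of genes in the mRNA table. The comparison set was 230 genes with the same rise that stayed above the limit after withdrawal. Of its 174 promoters, 22.4% held TGACG, 0.575% the full element and 6.9% TATAAA. The letters of the EGR site (GCGTGGGCG), the AP-1 site (TGACTCA) and the NFI palindrome were in 0 of 29, against 0.544%, 4.63% and 0.0418% of all promoters. At shares this low, as for the full cAMP response element, 0 of 29 cannot set these genes apart from other promoters. A match is a run of letters and not a shown binding site, and these windows say nothing of more distant elements.

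The 3 promoters with the core of the cAMP response element are shown with those letters in capitals, written CGTCA where they lie on the other strand. They begin 21 bases after the start in Gmpr, 15 before it in Spata2L and 67 before it in Cd24.
Gmpr, chr17:19395598-19395897, minus strand: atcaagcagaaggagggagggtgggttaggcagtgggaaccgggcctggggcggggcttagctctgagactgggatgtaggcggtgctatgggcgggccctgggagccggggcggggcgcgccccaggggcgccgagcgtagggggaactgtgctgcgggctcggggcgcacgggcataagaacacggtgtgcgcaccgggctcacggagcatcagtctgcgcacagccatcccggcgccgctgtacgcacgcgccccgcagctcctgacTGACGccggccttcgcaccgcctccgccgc
Spata2L, chr19:68182020-68182319, minus strand: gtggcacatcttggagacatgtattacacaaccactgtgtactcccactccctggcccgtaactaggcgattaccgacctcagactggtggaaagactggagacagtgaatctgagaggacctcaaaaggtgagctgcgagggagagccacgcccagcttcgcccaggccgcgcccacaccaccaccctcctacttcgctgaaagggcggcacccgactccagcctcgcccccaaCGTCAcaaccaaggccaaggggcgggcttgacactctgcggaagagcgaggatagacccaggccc
Cd24, chr20:48656227-48656526, plus strand: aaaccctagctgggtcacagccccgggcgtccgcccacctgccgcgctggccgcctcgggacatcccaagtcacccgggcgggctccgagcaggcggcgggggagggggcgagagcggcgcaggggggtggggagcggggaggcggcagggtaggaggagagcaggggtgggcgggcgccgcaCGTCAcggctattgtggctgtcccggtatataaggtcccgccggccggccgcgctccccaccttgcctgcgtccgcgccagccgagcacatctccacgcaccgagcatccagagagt
The 3 promoters with TATAAA on the gene's strand are shown with those letters in capitals.
Postn, chr2:140677811-140678110, plus strand: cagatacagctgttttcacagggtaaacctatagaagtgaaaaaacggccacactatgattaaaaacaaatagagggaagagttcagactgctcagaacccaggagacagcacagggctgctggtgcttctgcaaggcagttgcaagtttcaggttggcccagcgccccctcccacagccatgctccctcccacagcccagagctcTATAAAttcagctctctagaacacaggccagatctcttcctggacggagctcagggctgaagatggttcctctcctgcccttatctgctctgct
Nppc, chr9:94772137-94772436, minus strand: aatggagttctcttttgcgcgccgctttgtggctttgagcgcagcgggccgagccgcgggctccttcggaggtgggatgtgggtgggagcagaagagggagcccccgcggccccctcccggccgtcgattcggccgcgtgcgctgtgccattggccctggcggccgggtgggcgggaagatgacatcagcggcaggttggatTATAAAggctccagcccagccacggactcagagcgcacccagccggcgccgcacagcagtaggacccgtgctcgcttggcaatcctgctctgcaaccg
Igfbp4, chr10:84491221-84491520, plus strand: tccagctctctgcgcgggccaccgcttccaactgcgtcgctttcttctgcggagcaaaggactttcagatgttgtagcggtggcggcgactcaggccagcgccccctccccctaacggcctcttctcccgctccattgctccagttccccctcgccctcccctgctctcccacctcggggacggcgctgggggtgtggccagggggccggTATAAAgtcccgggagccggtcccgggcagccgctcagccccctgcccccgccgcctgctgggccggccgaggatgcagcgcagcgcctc

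All 45 genes passed the filter on low counts that left 10372 genes for testing. In each of them the 3 differentiated libraries were above the 6 others, which held for 25.4% of all genes tested. In the edgeR fit over all genes, 45 of 45 were called higher in differentiated than in undifferentiated cells (31.7% of all genes) and 45 of 45 lower in dedifferentiated than in differentiated cells (23.2% of all genes). These counts follow from the choice of genes. The median fitted log2 change was 4.44 on the way up and -3.95 on the way down, against 0.05 and -0.01 over all genes tested. The mean level in differentiated cells was at least 10 CPM for 35 of the 45 genes and under 10 CPM for 10.

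**Figure D1:**
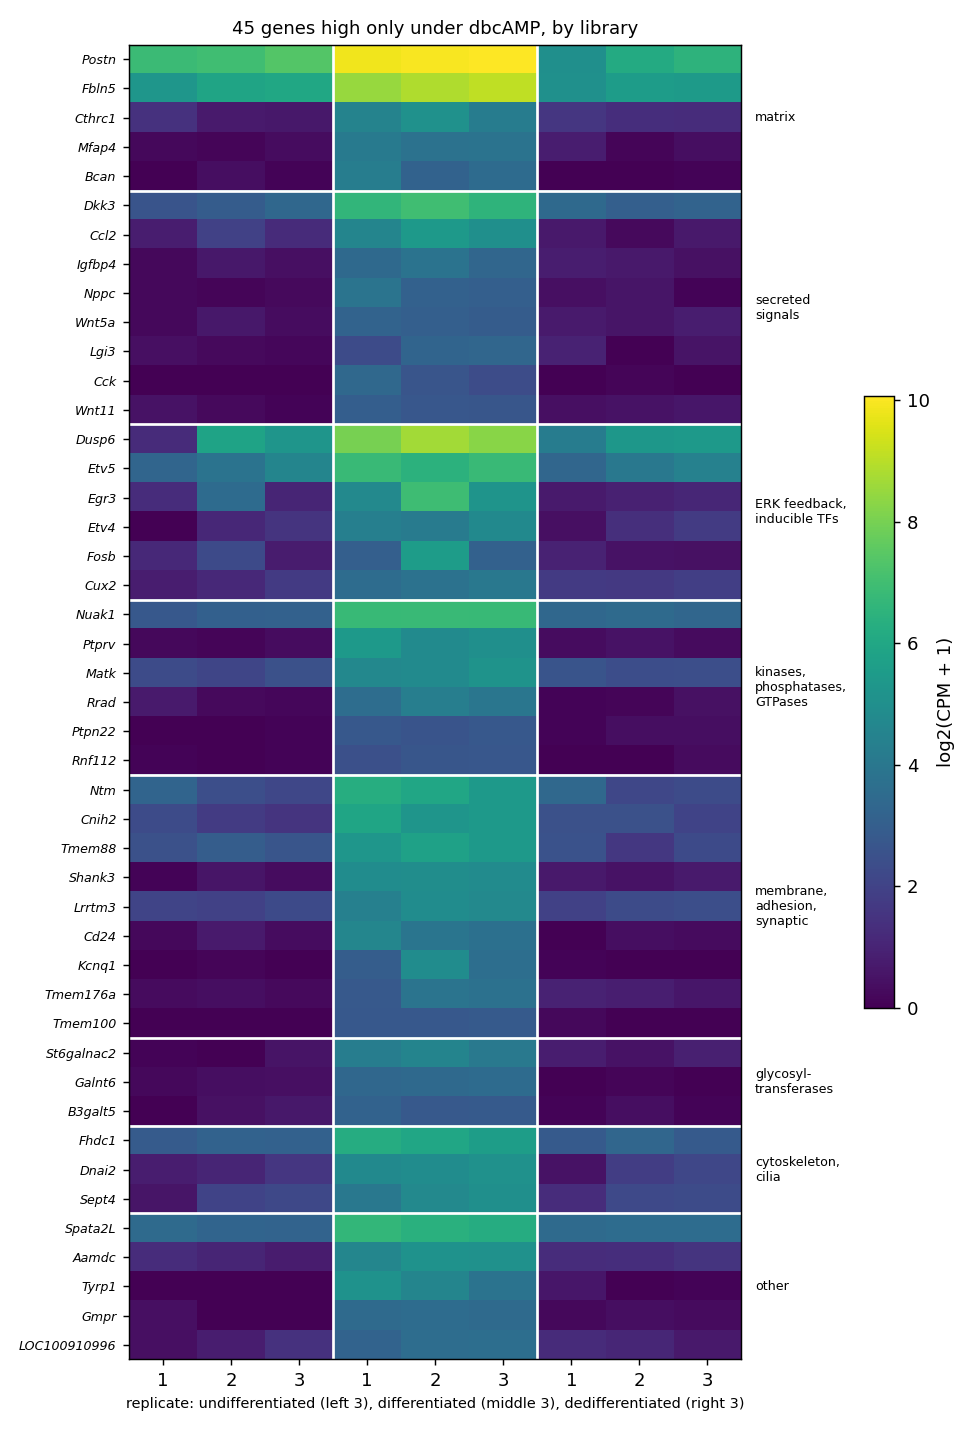
Level of each of the 45 genes (rows, grouped by function) in each of the 9 cell mRNA libraries (columns, replicates 1 to 3 of each stage), coloured by log2(CPM + 1). The middle 3 columns are the brightest in every row.

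The matrix group held 5 genes. Postn, which encodes the matricellular protein periostin, was at 115, 126 and 166 CPM in undifferentiated, 915, 1007 and 1070 CPM in differentiated and 31.6, 71.0 and 89.9 CPM in dedifferentiated replicates 1, 2 and 3. Its mean rose 7.35-fold in the first step, and the 3 dedifferentiated libraries all lay below the 3 undifferentiated ones. Fbln5, needed for assembly of elastic fibres, went from 38.2, 57.7 and 62.2 CPM to 368, 470 and 541 CPM and back to 32.6, 46.7 and 43.3 CPM. Here the libraries of the first and last stage overlapped. Cthrc1, a secreted protein with collagen triple helix repeats, was at 0.985 ± 0.614, 24.1 ± 7.91 and 1.65 ± 0.333 CPM (SD, n = 3 libraries at each stage, in the same order). Mfap4, a glycoprotein of microfibrils, was at 0.173 ± 0.0834, 14.4 ± 2.13 and 0.388 ± 0.34 CPM (SD, n = 3). Bcan encodes brevican, a chondroitin sulphate proteoglycan of nervous tissue. It was at 18.0, 7.95 and 10.4 CPM in differentiated replicates, with 4 counts in all in undifferentiated and 1 count in dedifferentiated libraries.

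Fibroblasts also make several of these matrix proteins. The summed level of 7 listed fibroblast markers was 24403 to 29129 CPM in undifferentiated, 12013 to 15678 in differentiated and 16039 to 19578 in dedifferentiated libraries. Nearly all of that sum was Col1a1 and Col1a2. Col3a1 was at 64.7, 39.5 and 55.4 CPM in undifferentiated, 94.9, 88.9 and 92.3 CPM in differentiated and 226, 104 and 112 CPM in dedifferentiated replicates. Of the 4 markers tested with edgeR, 1 rose and 2 fell under dbcAMP. Lum was at 0 in all 9 libraries, and Dcn and Pdgfra were at most 0.884 CPM in any of them. The part of fibroblasts in the matrix values was not tested.

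Secreted signals and their modulators formed a group of 8 genes. Dkk3, a secreted member of the Dickkopf family, had 5.16, 6.63 and 9.16 CPM before, 96.4, 124 and 91.4 CPM under and 9.92, 7.16 and 8.20 CPM after dbcAMP in replicates 1, 2 and 3. The first and last stage overlapped. Ccl2, a chemokine that attracts monocytes, had 0.725, 2.88 and 1.37 CPM, then 23.1, 42.4 and 30.9 CPM, then 0.593, 0.199 and 0.602 CPM. All 3 of its dedifferentiated libraries were below the lowest undifferentiated one. The 5 listed markers of macrophages and other leukocytes had low summed values. These were 0.403 to 2.29 CPM before, 3.95 to 5.17 CPM under and 2.11 to 3.65 CPM after dbcAMP. Cd68 was at 0.322, 0.673 and 1.18 CPM, then 3.76, 4.01 and 2.47 CPM, then 2.12, 1.29 and 0.677 CPM. Csf1r was at 0 before, 0.295, 0.849 and 0.987 CPM under and 0.933, 0.696 and 0.527 CPM after dbcAMP. Ptprc and Cd14 were at most 0.677 and 0.654 CPM in any library. By edgeR both of the markers tested rose and 1 of them then fell, and Aif1 was at 0 in all 9 libraries. The part of such cells in the Ccl2 values was not tested.

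Igfbp4, a binding protein for insulin-like growth factors with a TATA box in the promoter shown above, was at 0.355 ± 0.209, 10.7 ± 2.11 and 0.579 ± 0.194 CPM (SD, n = 3 at each stage). Nppc, the precursor of C-type natriuretic peptide, also has TATAAA in its promoter, 48 bases before the start. It reached 13.6, 7.72 and 7.34 CPM under dbcAMP, from 0.151 ± 0.0508 CPM before and 0.304 ± 0.213 CPM after (SD, n = 3). Both Wnt ligands of the set were low outside dbcAMP. Wnt5a was at 0.333 ± 0.217, 7.40 ± 0.895 and 0.642 ± 0.131 CPM, and Wnt11 at 0.220 ± 0.17, 6.07 ± 0.815 and 0.421 ± 0.0959 CPM (SD, n = 3). Lgi3, a secreted leucine-rich repeat protein, was uneven among differentiated libraries, with 3.90, 8.57 and 9.07 CPM. Cck, which encodes the cholecystokinin precursor, had 0 counts in undifferentiated libraries and 9.5, 5.32 and 4.01 CPM in differentiated ones. Against a floor of 3 counts over the group, that is at least 78.1-fold higher.

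Transcription factors and feedback genes of ERK signalling numbered 6. Dusp6, a phosphatase that inactivates ERK, was at 1.37, 56.7 and 36.9 CPM in undifferentiated, 255, 403 and 311 CPM in differentiated and 17.9, 39.3 and 41.4 CPM in dedifferentiated replicates 1, 2 and 3. The differentiated libraries lay far above the rest, and undifferentiated replicate 1 lay far below its 2 partners. Etv5, an ETS transcription factor, had 8.62, 13.3 and 22.8 CPM, then 113, 86.5 and 112 CPM, then 8.90, 15.3 and 20.6 CPM. Etv4, of the same family, had 0, 1.15 and 1.83 CPM, then 19.2, 17.4 and 26.2 CPM, then 0.339, 1.59 and 2.33 CPM. For both, replicate 1 was the lowest and replicate 3 the highest library before dbcAMP, and again after its withdrawal.

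Egr3, an immediate early zinc finger factor, was at 1.45, 10.6 and 1.05 CPM in undifferentiated, 25.4, 122 and 36.1 CPM in differentiated and 0.678, 0.895 and 1.13 CPM in dedifferentiated replicates. Fosb, a subunit of the AP-1 factor, was at 1.21, 3.75 and 0.720 CPM, then 7.37, 46.2 and 7.65 CPM, then 0.933, 0.398 and 0.376 CPM. In both genes replicate 2 stood above its partners before and under dbcAMP. Without differentiated replicate 2 the fitted log2 rise of Fosb was 1.98 in place of 3.43, and the gene no longer met the limit for the rise. That of Egr3 was 2.83 in place of 3.83, and 5.52 without undifferentiated replicate 2. Cux2, a homeodomain factor, had no such library under dbcAMP, and was at 1.42 ± 0.796, 13.0 ± 2.30 and 2.37 ± 0.233 CPM (SD, n = 3).

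**Figure D2:**
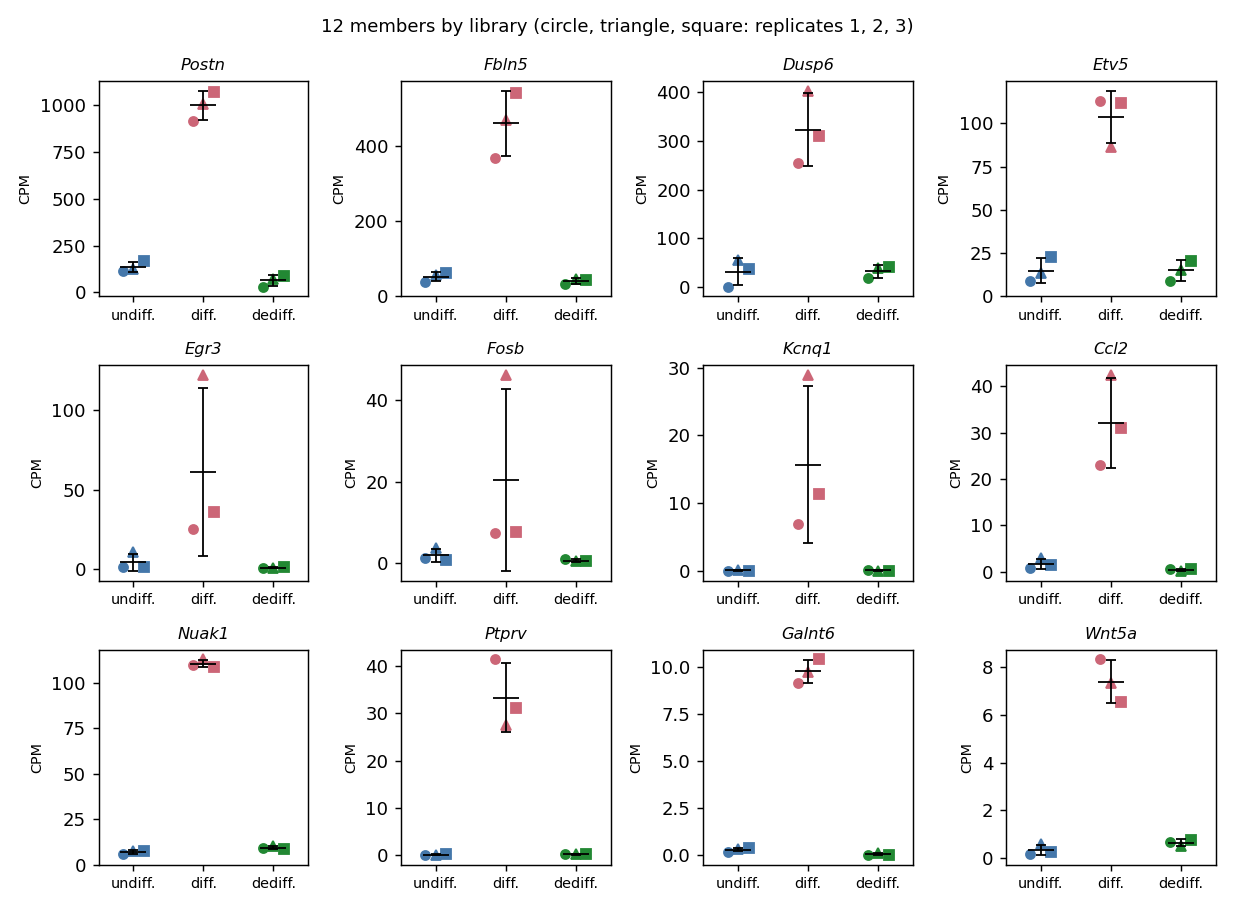
CPM of 12 of the 45 genes in every library, 1 panel per gene with its own axis. Circles, triangles and squares are replicates 1, 2 and 3, and bars give the mean and SD of 3 libraries. In each panel the differentiated libraries are above the others. Replicate 2 stands above both partners under dbcAMP in Egr3, Fosb and Kcnq1, while the 3 Nuak1 libraries lie between 109 and 113 CPM.

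A published list of ERK target genes, added after the 45 genes were known, places the first 3 of these factors beside 7 genes outside the set. Between undifferentiated and differentiated cells, 4 of those 7 rose and 2 fell by edgeR's quasi-likelihood test, with a median log2 change of 2.57. Dusp4, a phosphatase of the same family as Dusp6, rose by 5.63 (SE 0.44, adjusted p = 1.44e-06). Ccnd1 (cyclin D1, which drives cells into S phase) rose by 3.99 (SE 0.33, adjusted p = 2.21e-06), Epha2 (an ephrin receptor) by 3.38 (SE 0.37, adjusted p = 1.81e-05) and Phlda1 by 2.57 (SE 0.53, adjusted p = 0.00164). Epha4 went the other way at -3.20 (SE 0.27, adjusted p = 2.52e-06), as did Spry2, a feedback inhibitor of ERK signalling, at -1.94 (SE 0.44, adjusted p = 0.00317). Spry4 had a log2 change of 1.13 (SE 0.64, adjusted p = 0.151). After withdrawal 5 of the 7 fell and 1 rose, with a median of -2.04. Against undifferentiated cells 2 were then higher and 1 lower. Over all genes tested, 31.7% rose and 27.9% fell under dbcAMP, and 23.2% went each way after withdrawal. At the end 16.1% of all genes were higher and 13.3% lower than at the start. The same shares apply to the gene lists below. Dusp4 stopped just short of the set: its m after withdrawal was 0.515 above the start.

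Undifferentiated replicate 1 was the lowest of its stage for all 10 genes of that list, and more than 2-fold below both partners for 7 of them (70%). Over all genes tested it was the lowest for 46.6% and that far below for 4.58%. Those 7 were Dusp6, Etv4, Dusp4, Spry4, Phlda1, Ccnd1 and Epha2. Phlda1 had 4.67 CPM in this library against 48.8 and 42.3 CPM in replicates 2 and 3, and Spry4 had 0.403 against 13.2 and 10.5 CPM. Without that library the fitted log2 rise was 2.75 in place of 3.31 for Dusp6, 3.72 in place of 4.28 for Etv4 and 5.14 in place of 5.63 for Dusp4. Etv5 then had a smaller rise than the limit and left the set, which would hold 43 genes, 39 of them among the 45. Other libraries moved these genes the other way: the rise of Dusp6 was 3.97 without undifferentiated replicate 2, and that of Etv4 was 5.18 without undifferentiated replicate 3. Each left the set in that setting, and Etv4 also without dedifferentiated replicate 1.

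**Figure D3:**
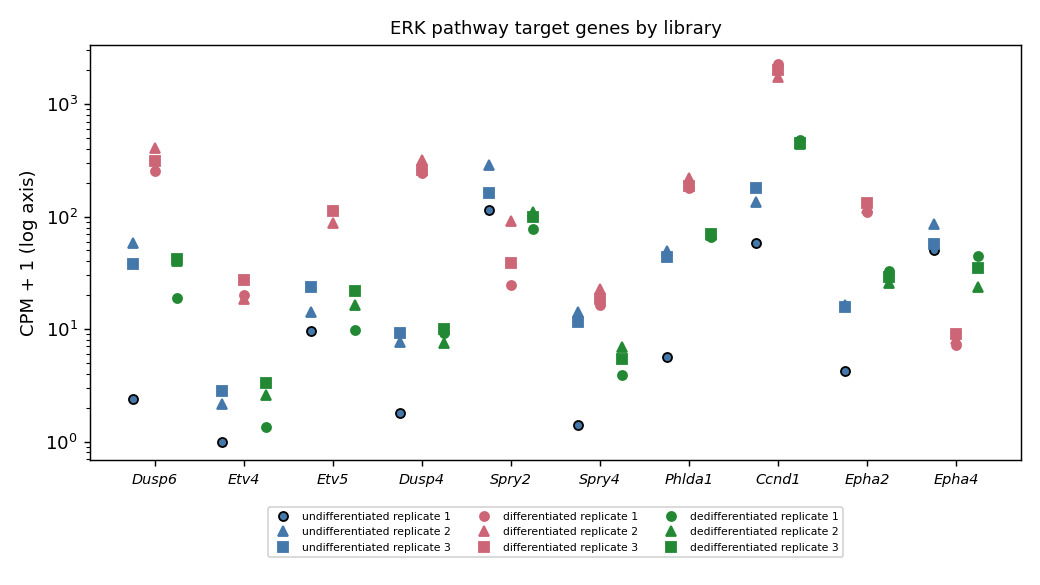
CPM + 1 on a log axis for the 10 listed ERK target genes in each library. Colours mark the stage and shapes the replicate, and the outlined circle is undifferentiated replicate 1, the lowest undifferentiated point in every column. Dusp6, Etv4 and Etv5 belong to the 45 genes, and Spry2 and Epha4 are lower in the 3 differentiated libraries than in the 3 undifferentiated ones.

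Genes fixed as the CREB family and cAMP-responsive genes bear on Fosb, the only 1 of the list in the set. Of 20 others tested, 5 rose and 4 fell from undifferentiated to differentiated cells by edgeR's test, with a median log2 change of -0.09, where 31.7% and 27.9% of all genes rose and fell. After withdrawal 1 rose and 6 fell, and against the start 2 were higher and 5 lower. Nr4a1, an immediate early orphan nuclear receptor, was the nearest gene outside the rise limit at 2.481. It rose by 2.43 (SE 0.33, adjusted p = 0.000105) and fell by 2.44 (SE 0.33, adjusted p = 0.000186) on the log2 scale. Egr2, which drives myelin genes, rose by 6.90 (SE 0.61, adjusted p = 4.09e-06) and was still 4.46 above the start after withdrawal (SE 0.57, adjusted p = 0.00023). Bdnf, a neurotrophin, had a log2 change of -4.88 (SE 0.23, adjusted p = 4.21e-08), and Crem, which encodes activators and repressors of the CREB family, one of -0.05 (SE 0.10, adjusted p = 0.7).

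Differentiated replicate 2 was the highest of its stage for 16 of 21 genes of that list, Fosb included, and for 36.3% of all genes tested. It was more than 2-fold above both partners for 8 of the 21 (38.1%) and for 0.675% of all genes. Those 8 were Fosb, Fos, Nr4a1, Nr4a2, Nr4a3, Sik1, Rgs2 and Egr1. Undifferentiated replicate 2 was likewise the highest of its stage for 16 of 21, against 30.4% of all genes, and more than 2-fold above both partners for 5 (23.8%), against 0.935% of all genes. Under dbcAMP, Egr1 had 140 CPM in replicate 2 against 10.2 and 17.1 CPM, and Nr4a1 had 864 against 421 and 377 CPM. Among the 45 genes differentiated replicate 2 was that far above its partners in 3 (6.67%): Egr3, Fosb and Kcnq1.

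Of the fixed list for cAMP production and protein kinase A, no gene was in the set. Among 20 tested, 6 rose and 9 fell under dbcAMP (median log2 change -0.21), 7 rose and 5 fell after withdrawal (median 0.12), and 3 were higher and 5 lower at the end than at the start. Gnal, a G protein subunit that stimulates adenylyl cyclase, rose by 4.41 (edgeR, SE 0.29, adjusted p = 4.41e-07). The anchoring protein Akap6 was at -5.08 (SE 0.19, adjusted p = 7.86e-09), the cyclase Adcy5 at -2.87 (SE 0.14, adjusted p = 4.78e-08), and Gnas, the general stimulatory G protein subunit, at -1.28 (SE 0.09, adjusted p = 5.08e-07).

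Kinases, phosphatases and proteins with a GTPase domain were 6 of the 45 genes. Nuak1, a kinase related to AMPK, was at 5.88, 7.60 and 7.79 CPM before, 110, 113 and 109 CPM under and 9.33, 10.3 and 8.88 CPM after dbcAMP. All 3 of the last libraries were above all 3 of the first, although the means differed only 1.34-fold. Ptprv, a receptor-type tyrosine phosphatase, was at 41.3, 27.4 and 31.1 CPM under dbcAMP, with 7 counts in all before it and 10 after it. Its rise was 192-fold. Matk, a kinase that inhibits Src family kinases, was at 3.93 ± 0.69, 28.9 ± 5.03 and 4.52 ± 0.497 CPM, and the GTPase Rrad at 0.323 ± 0.281, 14.7 ± 3.86 and 0.187 ± 0.164 CPM (SD, n = 3). Ptpn22, a cytoplasmic tyrosine phosphatase, was at 5.82, 5.09 and 5.86 CPM under dbcAMP with 1 count before and 8 after. Rnf112, a RING finger protein with a GTPase domain, was at 4.42, 5.40 and 5.67 CPM with 2 counts before and 3 after. Rnf112 and the matrix gene Mfap4 are neighbours among protein-coding genes in the RefSeq table, the 1 such pair in the set.

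Dual specificity phosphatases, the family of Dusp6, were counted as a fixed list. Of the other 16 tested, 7 rose and 4 fell under dbcAMP (median 0.49), and 1 rose and 5 fell after withdrawal (median -0.07). Against the start 4 were then higher and 2 lower. Dusp15 rose by 9.28 (edgeR, SE 0.45, adjusted p = 5.49e-08) and was still 9.29 above the start after withdrawal (SE 0.45, adjusted p = 6.33e-07). Dusp16 rose by 2.82 (SE 0.15, adjusted p = 1.09e-07) and was 1.90 above the start at the end (SE 0.15, adjusted p = 9.39e-06). Dusp4, given above, was at 0.55 at the end (SE 0.46, adjusted p = 0.413).

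Membrane, adhesion and synaptic proteins made up 9 of the genes, several of them best known from neurons. Ntm, a GPI-anchored adhesion molecule called neurotrimin, was at 8.38, 4.33 and 3.40 CPM, then 75.5, 61.1 and 42.1 CPM, then 9.58, 3.38 and 3.99 CPM. Replicate 1 was the highest library at all 3 stages. Shank3, a scaffold of postsynaptic densities, was even under dbcAMP at 28.9, 29.6 and 27.9 CPM, from 0.0806, 0.481 and 0.262 CPM before and 0.593, 0.398 and 0.677 CPM after. Its rise was 105-fold. Cnih2, an auxiliary subunit of AMPA receptors, was at 2.73 ± 1.09, 46.2 ± 11.4 and 4.11 ± 0.891 CPM, and Lrrtm3, a synaptic adhesion protein, at 3.27 ± 0.469, 24.7 ± 4.71 and 3.74 ± 0.768 CPM (SD, n = 3). The summed level of 4 listed neuron markers was 45 to 74.5, 34.9 to 41.8 and 41.7 to 57.8 CPM at the 3 stages. Nearly all of it was Tubb3, and Rbfox3, Snap25 and Syt1 were at most 0.0772, 0.192 and 0.221 CPM in any library.

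Tmem88, a membrane protein that binds the Wnt pathway protein Dishevelled, was at 5.65 ± 1.15, 44.9 ± 8.00 and 3.56 ± 1.35 CPM (SD, n = 3). Cd24, a GPI-anchored glycoprotein, was at 23.4, 14.1 and 12.3 CPM under dbcAMP, with 13 counts before and 6 after. Cd24 has near-identical copies in the genome, so its counts are uncertain. Kcnq1, a voltage-gated potassium channel subunit, was at 6.85, 28.9 and 11.3 CPM under dbcAMP, with 1 count before and 1 after. A noncoding RNA runs antisense to it, and whether counting used the strand is not given in the sources used here. Tmem176a was at 6.04, 13.5 and 12.5 CPM, with 9 counts before and 26 after, and Tmem100 at 5.82, 5.79 and 6.23 CPM, with 0 counts before and 2 after. For Tmem100 this is at least 75.8-fold higher than before, against the floor of 3 counts over the group.

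Other potassium channel genes changed in both directions. Of 28 tested, 15 rose and 7 fell under dbcAMP (median log2 change 1.21), and 12 rose and 10 fell after withdrawal (median 0.29). Against the start 14 were higher and 4 lower (median 1.11). Of all genes tested, 31.7% rose and 27.9% fell under dbcAMP, 23.2% went each way after withdrawal, and 16.1% ended higher and 13.3% lower. Kcnk5 rose by 5.38 (edgeR, SE 0.19, adjusted p = 6.64e-09), fell by 2.45 after withdrawal (SE 0.15, adjusted p = 8.09e-07) and was then still 2.93 above the start (SE 0.20, adjusted p = 3.61e-06). Kcnj10 rose by 9.33 (edgeR, SE 0.58, adjusted p = 2.9e-07) and was still 8.45 above the start at the end (SE 0.60, adjusted p = 4.53e-06), while Kcnd3 was at -3.49 under dbcAMP (SE 0.21, adjusted p = 2.08e-07). The other 11 families counted by name held no gene of the set.

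The glycosyltransferases were 3. St6galnac2, a sialyltransferase, was at 18.3, 22.5 and 15.7 CPM under dbcAMP, from 0.180 ± 0.245 CPM before and 0.663 ± 0.232 CPM after (SD, n = 3). Galnt6, which starts mucin-type O-glycans, was at 0.161, 0.288 and 0.327 CPM before, 9.14, 9.72 and 10.4 CPM under and 0, 0.0994 and 0 CPM after dbcAMP. Its 3 last libraries held 1 count together, against 10 in the first 3. B3galt5, a galactosyltransferase, was at 8.03, 6.10 and 6.17 CPM under dbcAMP, with 13 counts before and 5 after.

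Cytoskeletal and ciliary genes were also 3. The formin Fhdc1 was at 7.40 ± 0.835, 60.7 ± 12.9 and 7.16 ± 1.63 CPM (SD, n = 3). Dnai2, an intermediate chain of axonemal dynein, was at 0.725, 1.06 and 2.03 CPM, then 26.2, 28.7 and 32.9 CPM, then 0.424, 2.58 and 3.46 CPM, and the septin Sept4 was at 0.483, 3.08 and 3.53 CPM, then 15.3, 25.8 and 31.2 CPM, then 1.44, 3.68 and 3.99 CPM. In these 2 genes replicate 1 was the lowest library and replicate 3 the highest at each stage.

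The remaining 5 genes are other enzymes and genes without a clear role. Tyrp1, an enzyme of melanosomes, was at 0 in undifferentiated, 33.8, 22.7 and 13.1 CPM in differentiated and 0.509, 0 and 0.0752 CPM in dedifferentiated replicates. It was at least 287-fold higher under dbcAMP than before, against the floor of 3 counts over the group. Of 6 listed melanocyte markers, 4 were in the table. Mlana was at 0 in all 9 libraries and Tyr was at most 0.327 CPM. Mitf was at 13.9, 17.2 and 15.8 CPM before, 13.0, 16.6 and 14.8 CPM under and 39.9, 25.2 and 22.6 CPM after dbcAMP. Gmpr, the GMP reductase whose promoter is shown above, was at 10.3, 10.7 and 10.3 CPM with 4 counts before and 8 after. Spata2L, also shown above, was at 8.97 ± 1.02, 85.8 ± 12.8 and 10.7 ± 0.304 CPM, Aamdc at 1.08 ± 0.366, 30.4 ± 6.12 and 1.60 ± 0.24 CPM, and LOC100910996 at 0.931 ± 0.704, 10.1 ± 1.77 and 1.02 ± 0.383 CPM (SD, n = 3).

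The return to the start was not equal among the 45 genes. On the scale of the rule, 13 ended below their level in undifferentiated cells and 32 at or above it. In the fit over all genes, 3 of 45 were called lower in dedifferentiated than in undifferentiated cells (13.3% of all genes) and 1 of 45 higher (16.1% of all genes), with a median log2 change of 0.37 against 0.02 over all genes. The rule caps this difference on the upper side and sets no lower bound. Since the same values chose the genes, neither count is read against the background. The other 41 were not called, which does not show that they were equal. In 3 genes all dedifferentiated libraries lay below all undifferentiated ones (17.1% of all genes), and in 4 all lay above (26.8% of all genes). The lower ones were Postn at -1.13 (SE 0.28), Ccl2 at -1.76 (SE 0.59) and Galnt6 at -2.87 (SE 0.85), and the higher one was Nuak1 at 0.37 (SE 0.12).

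Adding 1 CPM before the logarithm lets a gene of low level pass the limit while its CPM is still severalfold above the start. Both end stages held over 3 counts for 37 of the 45 genes. Among these 37, the dedifferentiated mean was more than 2 times the undifferentiated one in 7 (Gmpr, Lgi3, Mfap4, Nppc, Shank3, St6galnac2 and Tmem176a) and less than 0.5 times in 6 (B3galt5, Ccl2, Cd24, Egr3, Fosb and Postn). The other 24 lay between. The widest upward ratios among the 37 were 3.69 in St6galnac2 and 3.10 in Tmem176a, both from under 10 counts at the start, and both genes are also the nearest inside the limit of the rule, at 0.495 and 0.496. Next inside were Cux2, Dnai2 and Cnih2, at 0.477, 0.475 and 0.455. The nearest outside were Dusp4 at 0.515, Camkv at 0.528, Ednrb at 0.568 and Polq at 0.580. On the rise, LOC100910996, Cux2, Wnt11, B3galt5 and Rnf112 were nearest inside at 2.528 to 2.556, and after Nr4a1 the nearest outside were Nebl at 2.473, Shmt1 at 2.402, Ryr2 at 2.374 and Cdkn1a at 2.340.

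**Figure D4:**
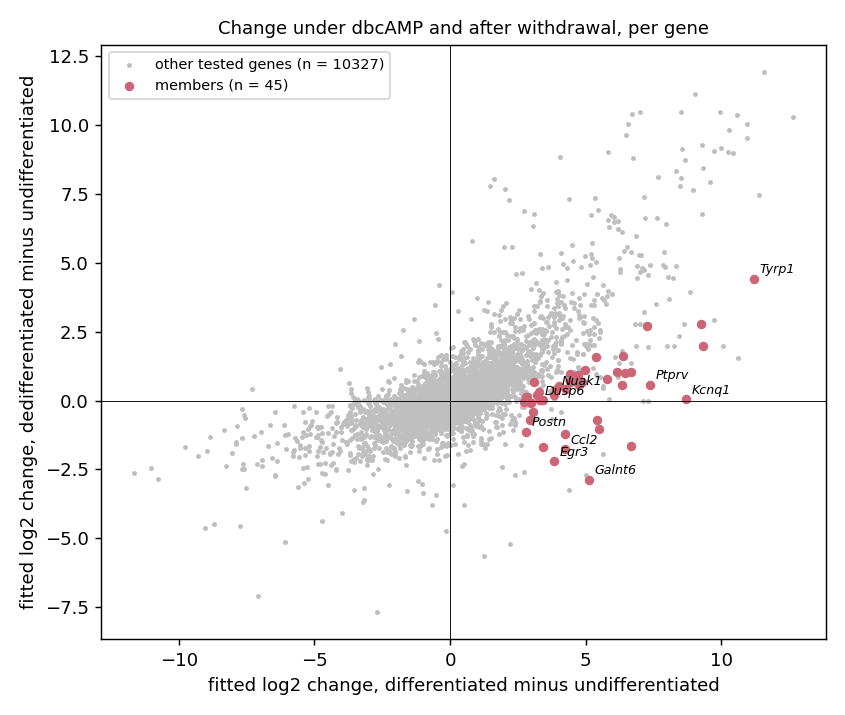
Fitted log2 change from undifferentiated to differentiated cells (horizontal axis) against that from undifferentiated to dedifferentiated cells (vertical axis), 1 point per gene, with the 45 genes in red and the other tested genes in grey. Both axes share the undifferentiated libraries. The red points lie on the right, scattered on both sides of the horizontal line. They run from Galnt6 at -2.87 to Tyrp1, which had 0 counts at the start, at 4.42. Others also lie far from the line, such as Egr3 at -2.20 and Tmem100 at 2.77.

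Spread among the 3 differentiated libraries was taken as the coefficient of variation. Its median over the 45 genes was 19%, from 2.05% to 110%, against 14% for the 230 genes with the same rise that stayed above the limit and 9.55% for all genes tested. Median level differed too, with 20.9 CPM in the 45 genes, 61.8 CPM in the 230 and 32.9 CPM in all. Only Egr3, Fosb and Kcnq1 were above 50%, and 7 of the 45 were under 10%.

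Sequencing project was tested within stages, a contrast that the choice of genes did not use. Between replicate 3 and replicates 1 and 2, edgeR's quasi-likelihood test with stage in the model called 0 of 45 genes and 0 of 10372 genes (0%), and DESeq2's Wald test called 0 of the 45 and 1 of all. An unadjusted p under 0.05 by edgeR's test was seen for 330 of 10372 genes (3.18%) and for a larger share of the set, 6 of 45. These were Etv5 (log2 difference 0.61, SE 0.21, adjusted p = 0.999), Cux2 (0.52), Ntm (-0.80), Cthrc1 (-0.63), Tyrp1 (-1.16) and Fosb (-1.70).

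In the vesicle libraries, 1 miRNA gene of the RefSeq table, Mir6325, lay next to a gene of the set, B3galt5. Its hairpin entry held 17 counts over the 9 vesicle libraries and its mature entry 10, with at most 7 and 6 in any library. Neither passed the count filter that 361 entries passed, so no test was made. None of the 45 genes, 0 by exact name, was a row of the vesicle lncRNA table.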

How the data were processed

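Cell mRNA from 9 libraries, with 9 vesicle miRNA and 9 vesicle lncRNA libraries, was analysed from deposited tables. The mRNA values are estimated counts per gene that the authors made with Salmon, per the submitters' processing notes, which also name STAR and HISAT2 with no role. Build, annotation and strand setting are not given in the sources used here. Fractional entries (1.15%) were rounded to whole counts. For miRNA and lncRNA the authors deposited raw counts. Columns were matched to samples by library code and stage, and sample titles gave the replicate number. The 45 genes and the gene lists were chosen with earlier results of these data known, and every gene of the set is named.

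CPM used column totals over all rows. The test was that of edgeR 4.0.16, run in R 4.3.3 (filterByExpr with a minimum count of 10, TMM, quasi-likelihood fit over all 9 libraries, Benjamini-Hochberg adjustment over 10372 genes, threshold 0.05). Standard errors were the absolute log2 change over the square root of F. Of list genes outside the set, up to 4 per list and comparison were named from the 4 with the smallest p, plus Spry4, Phlda1, Spry2 and Crem, chosen after their values were seen, as were the genes given for single libraries. A further gene just outside a limit of the rule is not reported here. The fit was tested on simulated counts (10372 genes, 200 changed, 3 draws). For differentiated against undifferentiated cells it called 82.8% of 2-fold and 96.2% of 4-fold changes, and for sequencing project 87.7% and 98.6%. In these comparisons 1.47% and 3.78% of the calls were false. The simulation used the spread usual at each gene's level and no outlying library. These shares need not hold for genes of wide spread, such as Egr3 with an SE of 0.72 for sequencing project. Alternatives were other scalings (DESeq2 1.42.0 size factors, library size alone), DESeq2's Wald test, no filter, a project term, a replicate block, each library left out, and other limits and pseudocounts of the rule.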

Additional observations from a re-analysis of the deposited data

How the results depend on the processing

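The number of genes that meet the rule depends on its limits. It was 45 as given, 70 with a rise of at least 2, 27 with 3, 13 with a limit of 0 after withdrawal and 76 with a limit of 1. With another pseudocount it was 55 (0.5 CPM) or 37 (2 CPM). It was 44 with TMM and 42 with DESeq2 size factors, and 40 genes were kept under both. Leaving out 1 library at a time gave 40 to 48 genes, and 28 of the 45 were kept in all 9 such settings. The rise and fall calls of the 45 genes stayed at 45 in the alternatives run, which the choice of genes fixes and which is no sign of stability. The number called between dedifferentiated and undifferentiated cells was 4, fell to 2 with the sequencing project in the model, and was 1 to 5 with 1 library left out: 1 without undifferentiated replicate 2, and 2 each without differentiated replicate 3, dedifferentiated replicate 2 or dedifferentiated replicate 3. Of 15 other settings, 11 ended the call of Nuak1, 8 that of Ccl2, 4 that of Galnt6 and 0 that of Postn. With a replicate block the number was 6. Replicate numbers were not taken to pair the samples, so the main fit leaves out any effect shared by a replicate number. Same-numbered deviations correlated at 0.028 to 0.304 (mean 0.175), and 2 of 9 pairs were at 0.1 or less. Deviations with different numbers correlated at -0.232 to 0.102 (mean -0.0837). Each deviation was from the mean of its stage, so those of a stage sum to 0. Values for different numbers therefore depend on those for the same number and are no separate observation. For 7 libraries the own number correlated best. Of single log2 changes of named and listed genes, 6980 kept direction and side of the threshold over the alternatives, 45 passed it newly, 91 no longer did and 0 reversed. The 6980 include changes of genes of the set that the choice of genes fixes, and are to that extent no sign of stability either. Other scalings moved the median of all genes by at most 0.06. Other settings for the vesicle miRNAs were not run, since neither entry passed the filter. Depth limits genes with few counts outside dbcAMP, where 3 counts in a library correspond to 0.185 to 0.298 CPM.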
